A study of Mus musculus with 21 samples.

Results

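The testes of 3 FXRα knockout (KO) mice given bisphenol A (BPA) were compared with those of 4 wild-type (WT) mice given BPA, 7 of the 21 libraries of the series. The 7 libraries were taken by the treatment and genotype that their labels give. All were whole testes at postnatal day 10 from mice of mixed background, 129sv and C57Bl6 in equal parts by the labels, and each library carries a T number of its own, taken here as 1 animal. The labels do not say outright that libraries came from separate animals. The p-values therefore measure the spread between libraries within the groups of all 21, and that spread may be partly technical. The KO animals were labelled FXR KO (FXRalpha-/-), and no other allele is named for either genotype. Vehicle and stigmasterol animals of both genotypes, 3 KO and 4 WT each, were in the same fit. They thus enter the filter on low counts and the estimate of spread behind each p-value. Otherwise they are used only for comparison with the BPA libraries. The sources used here give neither the dose and route of BPA nor the litters or the deleted part of the gene. The table lists 32643 genes, of which 20254 passed the filter on low counts and were tested, and 2760 had no read in the 7 libraries.

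FXRα, encoded by Nr1h4, is a nuclear receptor that binds bile acids and, paired with a retinoid X receptor, binds DNA at inverted repeats of a short hexamer. It is best known from liver and gut, where it limits bile acid synthesis and controls lipoprotein genes. In the mouse testis it is known from Leydig cells, which make androgens, and from germ cells. BPA is a plastics monomer with weak estrogenic activity. In the young testis, dividing spermatogonia lie beside Sertoli cells in the tubules, and meiosis is just starting.

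Levels are counts-per-million after TMM scaling (CPM), which can be compared between libraries for 1 gene but not between genes of different length. Values of single libraries are given in the order T25, T83 and T117 for KO and T60, T75, T61 and T74 for WT. The KO libraries held 42745033, 43675060 and 40261602 counted reads, and the WT libraries 50171437, 41482184, 45614371 and 45461370, so that 3 reads correspond to 0.0586 to 0.0738 CPM. A gene is called where its adjusted p in edgeR's quasi-likelihood test, fitted over all genes, was under 0.05. Defining markers of testis cells were detected in every one of the 7 libraries. Sox9 of Sertoli cells lay at 141 to 186 CPM in KO and 163 to 212 CPM in WT, Cyp11a1 of Leydig cells at 103 to 140 CPM in KO and 68.8 to 88.2 CPM in WT, and Ddx4 of germ cells at 188 to 261 CPM in KO and 210 to 234 CPM in WT.

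Some libraries also held RNA of tissues outside the testis. Cdh16, a cadherin of epididymal epithelium, was at 0.411, 17.6 and 27.9 CPM in KO and at 25.3, 23.6, 0.89 and 0.877 CPM in WT. Of other epididymal markers, Pax8 was at 2.17, 3.06 and 7.6 CPM in KO and at 4.1, 6.27, 4.04 and 3.94 CPM in WT. Pax2 was at 4.89, 5.68 and 11.3 CPM in KO and at 7.9, 9.37, 6.1 and 4.62 CPM in WT. Lcn8 was at 0.109 CPM or less in all 7, so by these markers KO animal T83 was high for Cdh16 alone. The sum of 22 epididymal genes was 112, 177 and 367 CPM in KO and 253, 256, 69.6 and 75.1 CPM in WT. Alb, the plasma protein of liver, was at 18.9, 4.34 and 4.06 CPM in KO and at 4.59, 58.6, 578 and 0.373 CPM in WT. Fabp4 of fat cells was at 1.71, 2.73 and 35.8 CPM in KO and at 0.977, 0.691, 0.716 and 0.964 CPM in WT. Acta1 of striated muscle was at 0.183, 0.0671 and 25.6 CPM in KO and at 11, 20.4, 0.239 and 0.153 CPM in WT. Ckm of the same tissue was at 0.548 CPM or less in all 7. By Cdh16 and the sum, epididymal RNA was thus present in libraries of both genotypes. Liver RNA was highest in WT animal T61 and fat RNA in KO animal T117. The part of these tissues in each result was not tested unless a value without the libraries is given beside it. The main axis of variance over the 7 libraries held 30.2% and ran from WT animal T61 to KO animal T117, and the next held 23.9% and separated the 3 KO libraries from the 4 WT libraries.

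Between KO and WT testes under BPA, 174 genes were called, 0.859% of those tested. Of these, 87 were higher and 87 lower in KO, 0.43% of the tested genes each way. At least 2-fold differences were seen for 107 of them, 55 higher and 52 lower in KO. An unadjusted p under 0.05 in edgeR was found for 1653 genes, 8.16% of those tested, which is the share to hold the counts of members at that level against. Over all tested genes the median log2 fold change was 0.01 and 51.9% were positive. The groups did not overlap for 166 of the 174 called genes, 95.4%, against 10.4% of all tested genes. The count was 88 (43 higher, 45 lower) without WT animal T61 and KO animal T117, and 108 without KO animal T117 alone. It was 31 (19 higher, 12 lower) when libraries whose Cdh16 reached 10 CPM were left out, which leaves 1 KO library, T25, assumed to vary as the other groups do, and 2 WT libraries.

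Rxfp1 (ENSMUSG00000034009, chromosome 3, 79641611 to 79737880, mm10), the receptor for the hormone relaxin, had the smallest adjusted p among genes whose symbol is not a provisional one. It stood at 20.1, 23.6 and 21.5 CPM in KO libraries, against 0.528, 0.548, 0.412 and 0.657 CPM in WT libraries. The groups lay far apart, and each varied little. Its log2 fold change was 5.33 ± 0.258 (SE, edgeR adjusted p = 2.09e-10). Of 6 tested genes for relaxin-family ligands and receptors, Rxfp1 alone was called. Rxfp2, the receptor for Insl3, had 0.709 ± 0.661 CPM in KO and 0.937 ± 1.03 CPM in WT (SD, n = 3 and 4; log2 fold change -0.40, edgeR adjusted p = 0.991), with 1 high WT library, T75. Insl3, the Leydig cell hormone that drives testis descent, had 19.7 ± 2.25 CPM in KO and 16.8 ± 2.7 CPM in WT (0.23, edgeR adjusted p = 0.955).

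The other large rises in KO were spread over genes of unlike function. Tmod4, a tropomodulin that caps actin filaments in muscle, was at 3.54, 4.07 and 3.71 CPM in KO and at 0.723, 0.811, 0.651 and 0.636 CPM in WT. Its log2 fold change was 2.42 ± 0.173 (SE, edgeR adjusted p = 7.25e-08). Grin2c, an NMDA receptor subunit, was at 15.7, 13.3 and 28.8 CPM in KO and at 4.34, 4.36, 5.49 and 4.36 CPM in WT (2.05 ± 0.307, edgeR adjusted p = 0.000888). KO animal T117 was the highest for Grin2c, and the other KO libraries also lay above every WT library. Pira2, an activating immune receptor of the Ig superfamily, was at 1.21, 1.61 and 1.03 CPM in KO and at 0.0195, 0.119, 0.13 and 0.11 CPM in WT (3.75 ± 0.349, edgeR adjusted p = 2.88e-06). Igsf23, another Ig superfamily member, was at 2.28, 2.35 and 3.2 CPM in KO and at 0.586, 0.525, 0.478 and 0.416 CPM in WT (2.37 ± 0.233, edgeR adjusted p = 4.95e-06). These rises and the falls described next were named by a rule that takes called genes with separate groups, so their separation follows from the choice.

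The adenylate kinase Ak9 rose to 5.71, 7.29 and 3.96 CPM in KO, against 1.08, 1.6, 1.37 and 1.45 CPM in WT (log2 fold change 2.04, edgeR adjusted p = 0.000952). Trichohyalin, Tchh, a protein of the hair follicle, rose to 13.8, 18.3 and 21.6 CPM in KO, against 5.9, 6.41, 3.06 and 4.27 CPM in WT (1.87, edgeR adjusted p = 0.00166). The phosphatase gene Ppm1n (2.43, 2.62e-06), the calcium-binding Tescl (2.76, 1.85e-05) and Gpr179, an orphan receptor known from retinal bipolar cells (1.89, 0.0335), also rose by the edgeR adjusted p given. Akt2-ps, a processed copy of the kinase gene Akt2, was at 2.7, 2.93 and 3.86 CPM in KO and at 0.0195 to 0.241 CPM in WT (5.05 ± 0.494, edgeR adjusted p = 4.87e-06), and reads of such copies can belong to their parent genes. The call of Gpr179 held without WT animal T61 (adjusted p = 0.031) and was lost without any one of the other 6 animals (0.0883 to 0.119). The other genes of this and the preceding paragraph kept theirs when each of the 7 animals was left out in turn.

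The falls in KO were likewise spread over genes of unlike function. Olfml3, a secreted olfactomedin-like matrix protein, averaged 12.9 ± 5.36 CPM in KO and 54.6 ± 6.24 CPM in WT (SD, n = 3 and 4; log2 fold change -2.08 ± 0.281 (SE), edgeR adjusted p = 0.000308). Slc2a2, the glucose transporter GLUT2 of liver and pancreatic β cells, was at 0.274, 0.112 and 0.295 CPM in KO and at 1.6, 2.34, 3.08 and 1.82 CPM in WT (-3.27 ± 0.467, edgeR adjusted p = 0.000539). WT animal T61, which held the most liver RNA, was also the highest for Slc2a2. That the other 3 WT libraries lay above all KO libraries follows from the choice of genes with separate groups.

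Shisa7, an auxiliary subunit of synaptic receptors, was at 0.823, 1.25 and 1.08 CPM in KO and at 3.32, 4.03, 4.64 and 4.16 CPM in WT (log2 fold change -1.94 ± 0.267, edgeR adjusted p = 0.000378). Its neighbour on chromosome 7, Isoc2b, was at 1.8, 1.88 and 1.89 CPM in KO and at 5.39, 4.89, 5.95 and 5.22 CPM in WT (-1.53 ± 0.172, edgeR adjusted p = 3.35e-05). Both were thus lower in every KO library than in any WT library. The RNA-binding splicing factor Celf3 (-1.78, 0.00219) and the inhibitory collagen receptor of leukocytes Lair1 (-1.60, 0.00238) also fell by the edgeR adjusted p given. Glt1d1, which has a glycosyltransferase domain, fell to 0.647 ± 0.148 CPM in KO, against 2.59 ± 0.373 CPM in WT (SD, n = 3 and 4; edgeR adjusted p = 0.0011). Hapln2, a link protein of brain matrix, was at 0.379 ± 0.22 CPM in KO and 1.35 ± 0.379 CPM in WT (SD, n = 3 and 4; -1.84, edgeR adjusted p = 0.0165), and lost its call without WT animal T61 or KO animal T25 or T83 (adjusted p up to 0.115). Hal, the first enzyme of histidine breakdown, was at 0.457, 0.402 and 0.295 CPM in KO and at 1.52, 0.572, 1.8 and 0.723 CPM in WT (-1.58, edgeR adjusted p = 0.0377). The Hal call was lost without WT animal T60 or T61 or any one KO animal (0.0881 to 0.208).

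**Figure D1:**
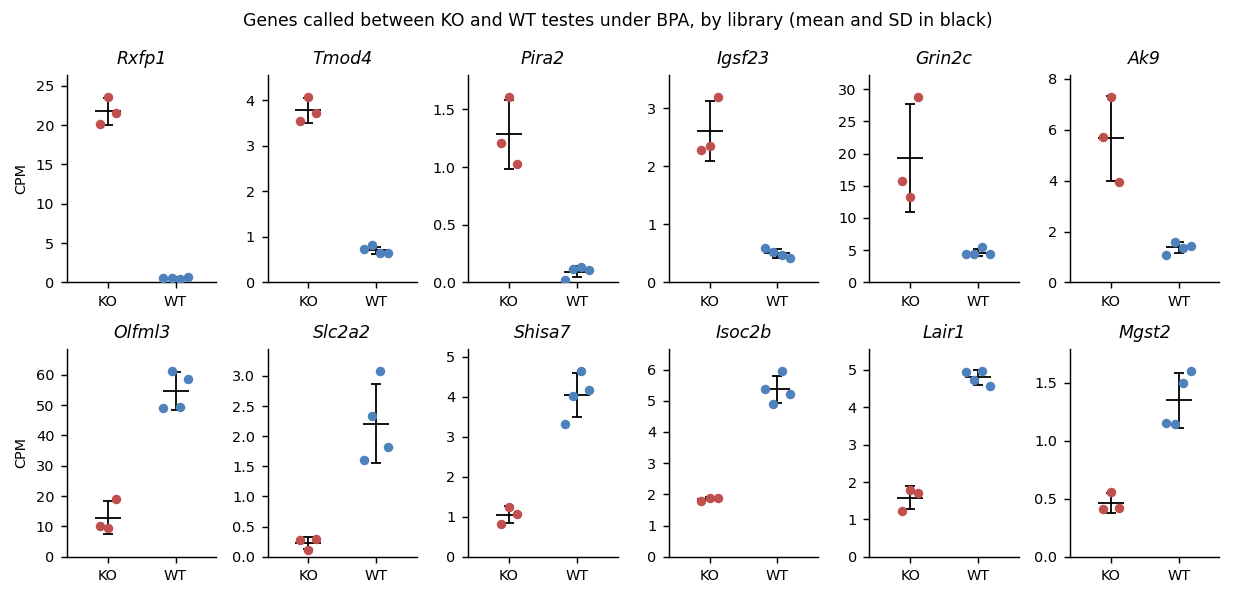
CPM of 6 genes called higher in KO (upper row) and 6 called lower in KO (lower row), by library under BPA. Points are the 3 KO libraries (left) and the 4 WT libraries (right), with the mean and SD in black, and each axis starts at 0. The genes were chosen among those with separate groups: Rxfp1 lies at 20.1 to 23.6 CPM in KO and 0.412 to 0.657 CPM in WT, and Shisa7 at 0.823 to 1.25 CPM in KO and 3.32 to 4.64 CPM in WT.

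Nr1h4 itself (ENSMUSG00000047638, chromosome 10, 89454234 to 89533585, mm10) was low in all libraries. It was at 0.343, 0.492 and 0.172 CPM in KO, from 15, 22 and 7 reads, and at 0.371, 0.691, 0.868 and 0.241 CPM in WT, from 19, 29, 40 and 11 reads. The groups overlapped, and the log2 fold change was -0.68 ± 0.395 (SE, edgeR adjusted p = 0.754). The 95% Wilson interval in KO animal T117, the lowest library, ran from 0.0834 to 0.355 CPM. In WT animal T61, the highest, it ran from 0.638 to 1.18 CPM, and both cover counting error only. Without knowledge of the deleted part, these gene-wide reads say nothing on whether the 7 labels are right.

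Of 27 tested genes in a list of FXR and its bile acid and lipid targets, 1 fell, none rose and 26 were not called (10 positive, 17 negative; median -0.13, against 0.01 over all genes, and -0.37 without KO animal T117). DESeq2 also called 1 of them, the same gene, and limma-voom 0. An unadjusted p under 0.05 in edgeR was found for 6 of the 27, all of them negative. The gene that fell was Apoc2, which activates lipoprotein lipase. It was at 0.114, 0 and 0.0738 CPM in KO, from 5, 0 and 3 reads, and at 0.43, 0.477, 1.74 and 0.329 CPM in WT, from 22, 20, 80 and 15 reads. The groups did not overlap, and the log2 fold change was -3.52 ± 0.807 (SE, edgeR adjusted p = 0.0429). The KO values are at or near the 3-read floor, so the size of the fold is uncertain. WT animal T61, the library with the most liver RNA, gave the highest value, and Apoc2 is itself abundant in liver. Without that animal the log2 fold change was -2.68 (edgeR adjusted p = 0.15), and without WT animal T75 or KO animal T25, T83 or T117 the adjusted p was 0.058 to 0.216, so that the call held only without WT animal T60 or T74. Apoc2 was lower in KO by -4.37 in vehicle animals (edgeR adjusted p = 0.0187) and -4.18 in stigmasterol animals (0.0141), which are other mice.

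Other classic FXR targets did not pass. Nr0b2, the repressor SHP that carries much of the action of FXR, was at 1.67, 2.15 and 2.39 CPM in KO and at 2.05, 1.41, 2.52 and 1.88 CPM in WT (log2 fold change 0.07 ± 0.285, edgeR adjusted p = 0.994). The genes of the bile acid exporter, Slc51a and Slc51b, had 0.727 ± 0.353 and 0.94 ± 0.334 CPM in KO and 0.528 ± 0.058 and 0.918 ± 0.199 CPM in WT (SD, n = 3 and 4; 0.46 and 0.03, edgeR adjusted p = 0.931 and 0.997). The groups overlapped for all 3. Scarb1, the lipoprotein receptor through which steroid-making cells take up cholesterol, was at 191, 163 and 221 CPM in KO and at 221, 248, 255 and 250 CPM in WT (-0.35 ± 0.112, edgeR adjusted p = 0.251). Members that are also liver genes, such as Apoa1 (-3.23, 0.412), Slc27a5 (-1.93, 0.416) and Slc10a1 (-1.72, 0.463), had negative values with adjusted p from edgeR that did not pass, and WT animal T61 held 82.3 of the Apoa1 CPM, against 0.197 to 7.44 CPM in the other 6 libraries.

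The promoters of the called target and of 3 targets that were not called are shown because they are where an FXR element close to the gene start would lie. Each runs from 250 bases before to 50 bases after a RefSeq gene start (GRCm38.p6), written 5′ to 3′ on the strand of the gene. Capitals mark the hexamer AGGTCA, the core of FXR elements, on either strand. They are Apoc2 (chr7:19677892-19678191, minus strand), Slc51a (chr16:32487830-32488129, minus strand), Slc51b (chr9:65422724-65423023, minus strand) and Nr0b2 (chr4:133553126-133553425, plus strand).
Apoc2: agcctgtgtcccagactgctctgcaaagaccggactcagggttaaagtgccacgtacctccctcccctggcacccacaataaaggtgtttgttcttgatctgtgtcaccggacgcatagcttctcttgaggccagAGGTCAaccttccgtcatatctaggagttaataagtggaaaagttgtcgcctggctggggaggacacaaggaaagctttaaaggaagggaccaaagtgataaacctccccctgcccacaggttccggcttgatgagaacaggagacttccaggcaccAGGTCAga
Slc51a: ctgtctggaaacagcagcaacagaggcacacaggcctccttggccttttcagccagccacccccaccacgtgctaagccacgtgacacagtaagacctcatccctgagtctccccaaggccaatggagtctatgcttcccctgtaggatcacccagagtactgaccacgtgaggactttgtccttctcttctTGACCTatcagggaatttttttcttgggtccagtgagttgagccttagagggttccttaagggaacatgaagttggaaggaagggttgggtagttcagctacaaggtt
Slc51b: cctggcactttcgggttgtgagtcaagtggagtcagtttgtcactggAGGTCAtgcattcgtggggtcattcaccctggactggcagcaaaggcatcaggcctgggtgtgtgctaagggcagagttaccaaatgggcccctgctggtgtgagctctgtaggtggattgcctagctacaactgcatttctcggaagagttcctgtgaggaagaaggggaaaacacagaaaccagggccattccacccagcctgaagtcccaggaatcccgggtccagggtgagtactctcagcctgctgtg
Nr0b2: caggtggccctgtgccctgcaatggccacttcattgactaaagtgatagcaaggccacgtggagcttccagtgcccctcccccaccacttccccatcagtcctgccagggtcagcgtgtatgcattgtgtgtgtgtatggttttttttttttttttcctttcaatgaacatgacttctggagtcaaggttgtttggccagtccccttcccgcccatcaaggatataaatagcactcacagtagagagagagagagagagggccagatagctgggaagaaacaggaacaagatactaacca

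Apoc2 held 2 copies of the hexamer, Slc51a and Slc51b 1 each and Nr0b2 none in this window. The full inverted repeat searched, AGGTCANTGACCT, was found in none of them. RefSeq promoters were matched for 86 of the 174 called genes, 110 promoters in all. The hexamer was present in 13.6% of those, against 13.5% of the 16853 promoters of tested genes and 16.3% of all 32851 promoters in the table. The inverted repeat was in 0 promoters of called or tested genes and in 3 of all. A match is a stretch of letters, not a bound site, and no match speaks only for these 300 bases.

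Sertoli cell genes gave no calls in edgeR, DESeq2 or limma-voom. Of 14 Sertoli cell regulators 0 were called (3 positive, 11 negative; median -0.13, 1 with an unadjusted p under 0.05 in edgeR), and the smallest p was that of Wt1, which keeps Sertoli cells in their identity, with 297 ± 14.9 CPM in KO and 336 ± 17.8 CPM in WT (SD, n = 3 and 4; log2 fold change -0.18, edgeR adjusted p = 0.463). Of 24 Sertoli effector and secreted genes 0 were called (11 positive, 13 negative; median -0.03), and 2 had an unadjusted p under 0.05 in edgeR. Blood-testis barrier genes (0 of 14; median 0.03, 0 with an unadjusted p under 0.05) and AMH, inhibin and activin genes (0 of 15; median -0.02, 1 with an unadjusted p under 0.05) likewise had no member called by any of the 3 tools.

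Leydig cell and steroidogenesis genes were not called either, 0 of 21 by edgeR, DESeq2 or limma-voom, with 4 at an unadjusted p under 0.05, although 14 were positive and 7 negative (median 0.15). Of those 4, Cyp11a1 and Lhcgr were higher in KO. Scarb1 (-0.35, edgeR adjusted p = 0.251), with the smallest p of the list, and Hsd11b1 (-1.06, 0.525) were lower. Lhcgr, Hsd11b1, Cyp17a1, Hsd3b1 and Hsd17b3 are not named by rule and were picked after their values were seen. Cyp11a1, which cleaves the cholesterol side chain in the first step of steroid synthesis, was at 103, 140 and 113 CPM in KO and at 70.3, 88.2, 68.8 and 86 CPM in WT (log2 fold change 0.60 ± 0.194, edgeR adjusted p = 0.263). Its groups did not overlap. Lhcgr, the receptor for luteinizing hormone, was at 8.89, 19.4 and 10.8 CPM in KO and at 7.02, 7.18, 6.73 and 8.13 CPM in WT (0.84 ± 0.28, edgeR adjusted p = 0.281). KO animal T83 was highest for both genes. Cyp17a1, a later enzyme towards androgens, was at 67.9, 160 and 93.7 CPM in KO and at 31.2, 43.2, 38 and 89.6 CPM in WT, where the groups overlapped (1.09, edgeR adjusted p = 0.675). Other enzymes of steroid synthesis in the list were not higher in KO. Hsd3b1 averaged 156 CPM in KO and 162 CPM in WT (-0.05, edgeR adjusted p = 0.994). Hsd17b3 averaged 51.8 CPM in KO and 65.8 CPM in WT (-0.345, edgeR adjusted p = 0.979). In a whole testis, fewer cells of a type and less RNA per cell cannot be told apart.

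Genes of meiotic prophase were positive for 32 of 37 members (median 0.23, against 0.01 over all genes), and 0 were called by edgeR, DESeq2 or limma-voom, with 1 at an unadjusted p under 0.05 in edgeR. That gene was Psmc3ip, a cofactor of strand exchange, at 19.5 ± 2.02 CPM in KO and 13.6 ± 1.47 CPM in WT (SD, n = 3 and 4; log2 fold change 0.52, edgeR adjusted p = 0.203). KO animal T25 stood apart from the other KO animals in this list. Its Sycp3, a protein of the synaptonemal complex, was at 80.4 CPM, against 34.2 and 28.9 CPM in the other KO libraries and 32.9 to 46.1 CPM in WT. Without that animal the median of the list was -0.27, so its sign rests on 1 library, and it was 0.93 where T25 was the single KO library kept. Of 24 genes of undifferentiated spermatogonia 0 were called (8 positive, 16 negative; median -0.13, 1 with an unadjusted p under 0.05), and of 24 genes of spermatogonial differentiation and retinoic acid response 0 (15 positive, 9 negative; median 0.10, 1 with an unadjusted p under 0.05). DESeq2 and limma-voom called none of these spermatogonial genes.

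Piwil1, the Piwi protein MIWI that binds piRNAs in spermatocytes and spermatids, fell in KO. It was at 4.98, 4.25 and 3.69 CPM in KO and at 7.17, 7.25, 7.47 and 7.82 CPM in WT (log2 fold change -0.79 ± 0.149, edgeR adjusted p = 0.0103). WT libraries lay within a narrow band above all KO libraries. Its call was lost without KO animal T83 or T117 (adjusted p up to 0.0902). In edgeR, Piwil1 was the only one called of 19 genes of the piRNA pathway and germline DNA methylation (8 positive, 11 negative; median -0.04) and of 20 genes of later spermatocytes and spermatids (9 positive, 11 negative; median -0.02). DESeq2 also called Ccna1, a meiotic cyclin, among the later germ cell genes, at 1.57 ± 0.454 CPM in KO and 0.733 ± 0.184 CPM in WT (SD, n = 3 and 4; log2 fold change 1.10, edgeR adjusted p = 0.103). Among 23 genes of axonemes and motile cilia, Ccdc39, which sets the spacing along the axoneme, fell to 14.4, 15.2 and 14.2 CPM in KO, against 19, 21.2, 20.1 and 21.3 CPM in WT (-0.48 ± 0.0972, edgeR adjusted p = 0.0166). Ccdc39 lost its call without WT animal T75 or T74 or KO animal T25 or T117 (adjusted p up to 0.0851). Of the same list DESeq2 also called Dnah6, an axonemal dynein heavy chain, at 0.821 ± 0.248 CPM in KO and 0.169 ± 0.107 CPM in WT (SD, n = 3 and 4; 2.24, edgeR adjusted p = 0.118).

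In lists of nuclear oxidative phosphorylation, mitochondrially encoded and cholesterol synthesis genes, 0 were called by edgeR or limma-voom, while DESeq2 called Cox7a2 and mt-Atp8. Nuclear genes of oxidative phosphorylation were positive for 29 of 30 members, with a median log2 fold change of 0.10 and 11 at an unadjusted p under 0.05. In vehicle animals 5 of the 30 were positive (median -0.075), and in stigmasterol animals 20 (median 0.046). Under BPA, Cox7a2, a subunit of cytochrome c oxidase, was at 81.5, 75.8 and 73.6 CPM in KO and at 70, 60.7, 60.4 and 61.7 CPM in WT (0.28 ± 0.0725, edgeR adjusted p = 0.0857). In the same 7 libraries 11 of 12 mitochondrially encoded genes were negative, with a median of -0.18 and 5 at an unadjusted p under 0.05. Here mt-Atp8, an ATP synthase subunit, was at 810 ± 50.4 CPM in KO and 976 ± 45.8 CPM in WT (SD, n = 3 and 4; -0.27, edgeR adjusted p = 0.125). Cholesterol biosynthesis genes were negative for 22 of 26 members (median -0.13, 3 with an unadjusted p under 0.05). Sc5d, a desaturase late in the pathway, ran the other way, at 32.3, 31.4 and 32.4 CPM in KO and at 26, 26, 26.7 and 19.7 CPM in WT (log2 fold change 0.38, edgeR adjusted p = 0.52).

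In edgeR 2 respiratory chain genes outside those lists were called, and they were singled out after their values were seen. Cox7c, another cytochrome c oxidase subunit, was at 67.3 ± 1.77 CPM in KO and 54.3 ± 3.98 CPM in WT (SD, n = 3 and 4; log2 fold change 0.31 ± 0.0609 (SE), edgeR adjusted p = 0.0137). Ndufb7, a subunit of complex I, was at 62.9, 53.9 and 59 CPM in KO and at 45.4, 44.7, 43.6 and 45 CPM in WT (0.39 ± 0.0834, edgeR adjusted p = 0.0267). Nnt, which makes NADPH in mitochondria from the proton gradient, was singled out in the same way and was at 46.3, 55.6 and 60.6 CPM in KO and at 29.1, 31.1, 32.7 and 30.5 CPM in WT (0.81 ± 0.117, edgeR adjusted p = 0.000552). All 3 were higher in every KO library than in any WT library. The groups did not overlap for 95.4% of called genes and 10.4% of all tested genes, so this separation is usual for called genes. In the order given, log2 fold changes were -0.05, 0.11 and 0.72 in vehicle animals. In stigmasterol animals they were 0.21, 0.41 and 0.69. Nnt thus differed in the same direction and by a similar amount in all 3 treatments. The mice were of mixed background, and the strain origin of Nnt in each animal was not tested.

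Lists of genes that handle BPA or answer to estrogen gave 0 calls, and the list of glutathione S-transferases gave 1. Mgst2, a microsomal glutathione S-transferase, was at 0.411, 0.559 and 0.418 CPM in KO and at 1.15, 1.14, 1.5 and 1.6 CPM in WT (log2 fold change -1.54 ± 0.204, edgeR adjusted p = 0.000253), and kept its call when each of the 7 animals was left out in turn. The other 22 of 23 glutathione S-transferase genes were not called. The list had 11 positive and 12 negative members (median -0.02), with 5 at an unadjusted p under 0.05 in edgeR. Among 18 tested xenobiotic receptors and BPA-handling enzymes 0 were called by edgeR, DESeq2 or limma-voom (9 positive, 9 negative; median -0.03), with 3 at an unadjusted p under 0.05 in edgeR. The smallest p was that of the liver enzyme Cyp2c29, whose WT value of 0.417 ± 0.626 CPM (SD, n = 4) came mostly from animal T61 (1.35 CPM), against 0.0859 ± 0.0584 CPM in KO (SD, n = 3; -2.25, edgeR adjusted p = 0.516). Of 15 estrogen receptor and estrogen-responsive genes 0 were called by any of the 3 tools, and 0 had an unadjusted p under 0.05 in edgeR (9 positive, 6 negative; median 0.00). Greb1, an estrogen-induced gene, was at 27.7, 38.7 and 55.2 CPM in KO and at 56.3, 71.8, 66.3 and 76.6 CPM in WT (-0.74 ± 0.363, edgeR adjusted p = 0.628).

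Immune genes gave 0 calls in 4 lists by edgeR, DESeq2 or limma-voom. Macrophage genes were positive for 17 of 21 members (median 0.21, 2 with an unadjusted p under 0.05), with C1qb, a complement subunit, at 12.2, 18.2 and 17 CPM in KO and at 11.3, 12.4, 14.6 and 11.5 CPM in WT (log2 fold change 0.35, edgeR adjusted p = 0.463). The macrophage median was 0 without KO animal T117 and -0.19 in the libraries with Cdh16 under 10 CPM, where T25 is the KO library. Interferon-induced genes were positive for 13 of 23 (median 0.02, 3 with an unadjusted p under 0.05), and Rsad2, the antiviral protein viperin, was at 0.617, 0.715 and 0.935 CPM in KO and at 0.899, 1.86, 1.52 and 1.36 CPM in WT (-0.90, edgeR adjusted p = 0.19). H2 genes were positive for 20 of 24 (median 0.07, 1 with an unadjusted p under 0.05). The lymphotoxin and TNF locus had 8 of 13 positive (median 0.04, 1 with an unadjusted p under 0.05).

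In the lists for other tissues, single animals stood apart. Fat cell genes were positive for 13 of 14 members (median 1.48, and 0.31 without KO animal T117), with 8 at an unadjusted p under 0.05 in edgeR. The summed level of the 15 genes was 112 to 276 CPM in KO and 60.8 to 109 CPM in WT. Adipoq, the fat hormone adiponectin, was called, at 0.251, 0.179 and 3.79 CPM in KO and at 0.117, 0.0238, 0 and 0.131 CPM in WT (log2 fold change 4.27 ± 0.995, edgeR adjusted p = 0.0485). Without KO animal T117 its fold change was 1.59 (edgeR adjusted p = 0.752), and the call was also lost without any one WT animal (0.0961 to 0.166). DESeq2 called Cidec and Fabp4 of this list in place of Adipoq, and limma-voom called none. Liver plasma protein genes were negative for 15 of 15 members (median -3.23, and -0.39 without WT animal T61), with 0 called by edgeR or limma-voom, 14 at an unadjusted p under 0.05 in edgeR and Apob called by DESeq2, and the summed level of the 16 genes was 33 to 68.5 CPM in KO and 20.4 to 1180 CPM in WT. Epididymal genes were positive for 16 of 19 (median 0.35, 0 called by any of the 3 tools and 0 at an unadjusted p under 0.05 in edgeR), at sums of 112 to 367 CPM in KO and 69.6 to 256 CPM in WT.

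Red cell transcripts summed over 11 genes gave 59.6 to 88.5 CPM in KO and 30.6 to 45 CPM in WT. Most of these sums came from Hbb-bs, an adult β-globin, at a mean of 40.8 CPM in KO and 20.6 CPM in WT, and Hba-a1. Of the 8 tested genes 5 were positive and 3 negative (median 0.35), and 0 were called by edgeR or limma-voom (3 with an unadjusted p under 0.05 in edgeR; DESeq2 called Hba-a1). The near-identical α-globin genes Hba-a1 and Hba-a2 ran in opposite directions. Hba-a1 was at 18.3, 12.4 and 21.4 CPM in KO and at 5.24, 4.58, 4.21 and 4.93 CPM in WT (log2 fold change 1.87 ± 0.506, edgeR adjusted p = 0.115), while Hba-a2 was at 0.754, 0.514 and 0.713 CPM in KO and at 3.11, 3.67, 2.8 and 3.75 CPM in WT (-2.33 ± 0.707, edgeR adjusted p = 0.197). For both genes the groups did not overlap. How the authors' counting shared reads between the 2 copies is not stated, so each value is uncertain.

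In all, 33 of 41 gene lists had no called member, and the other 8 had 1 each. The called members were Apoc2, Rxfp1, Mgst2, Piwil1 (in 2 lists), Olfml3 (with the collagens and basement membrane genes), Adipoq and Ccdc39. A share of 0.859% of tested genes was called over the whole table. The lists held 6 to 41 tested members each, so at that share a list without a called member is usual.

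**Figure D2:**
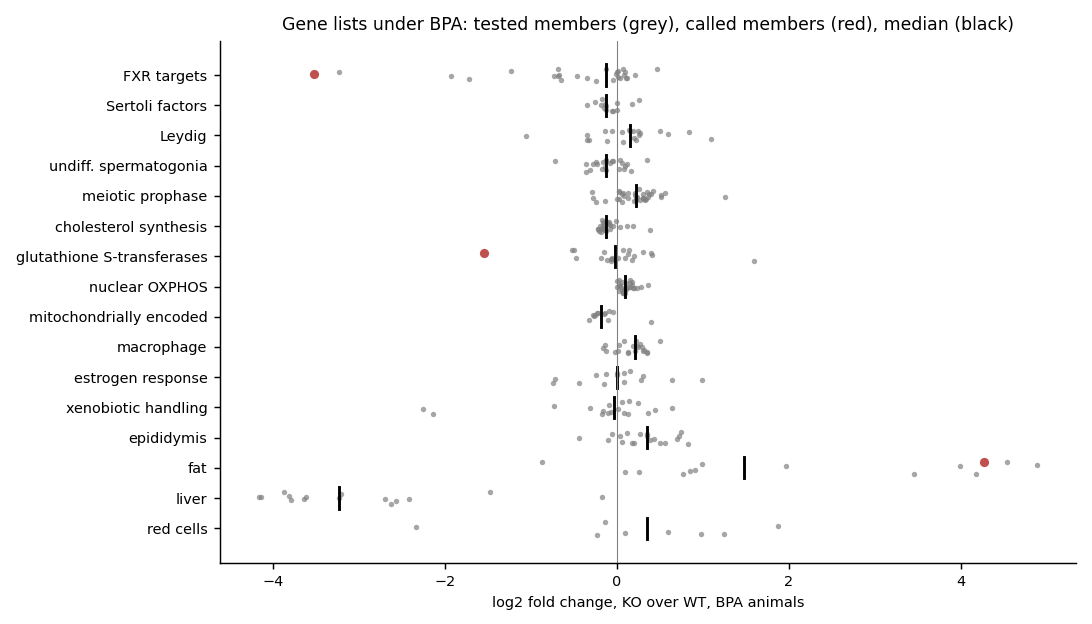
Log2 fold change, KO over WT under BPA, of the tested members of 16 gene lists. Each grey point is a gene, red points are called members and black bars are list medians. The medians lie between -0.18 and 0.23 except for the lists of epididymis (0.35), fat (1.48), liver (-3.23) and red cells (0.35).

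The genotype difference under BPA was set beside that in vehicle and in stigmasterol animals, which share no animal with it. All 21 libraries were in 1 fit, so the 3 comparisons share its estimate of spread. In the vehicle animals 592 genes were called (2.92%) and in the stigmasterol animals 1461 (7.21%). Of the 174 genes called under BPA, 132 were also called in vehicle animals, which is 75.9% of the 174 and 22.3% of the 592. In stigmasterol animals 150 were called, 86.2% of the 174 and 10.3% of the 1461. Called in both were 124, and 16 were called in neither. The sign matched in 170 of the 174 genes in vehicle animals and in 172 in stigmasterol animals, where over all tested genes the sign matched for 58.1% and 64.1%. The median size of the log2 fold change was 1.57 under BPA, and the same genes had medians of 1.42 in vehicle and 1.42 in stigmasterol animals, counted in the direction seen under BPA. Rxfp1 had log2 fold changes of 5.33 under BPA, 5.08 in vehicle and 5.60 in stigmasterol animals, and Olfml3 had -2.08, -2.43 and -1.97.

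**Figure D3:**
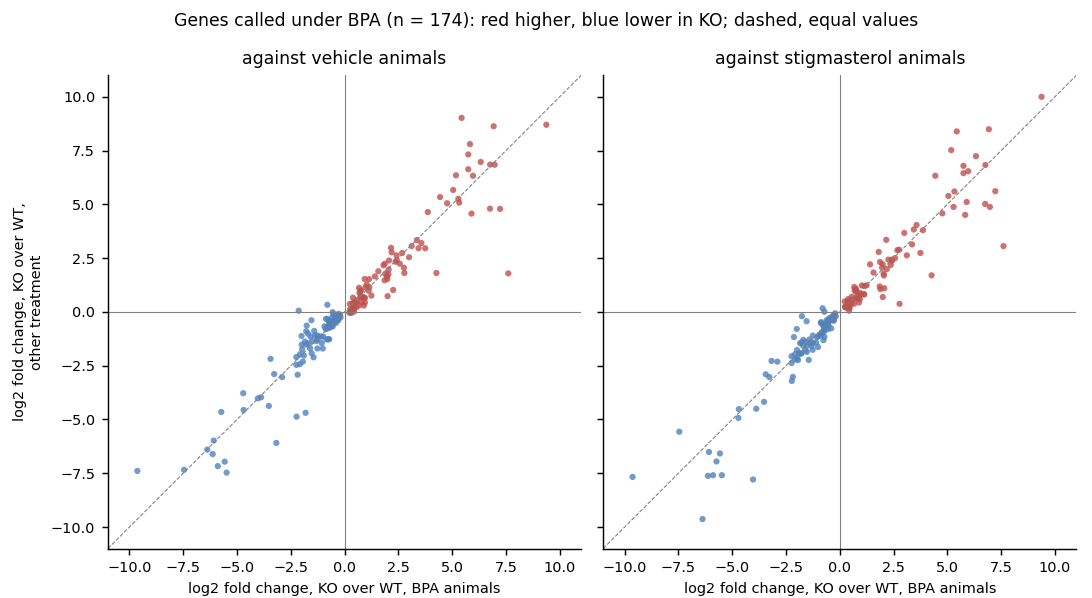
Log2 fold change, KO over WT, of the 174 genes called under BPA (horizontal axis) against that of the same genes in vehicle animals (left panel) and stigmasterol animals (right panel). Red points are higher and blue points lower in KO under BPA. Most points lie to the lower left and upper right of the zero lines: the sign matches for 170 genes in the left panel and 172 in the right.

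The 16 genes called under BPA but in neither other treatment were Mgst2, Ephb1, Ryr1, Rdm1, Krt12, Eif2a, Mrps35, Mppe1, Tceanc, Zfp954, Pvr, Ccdc169, Adipoq, Gm3912, Gm9974 and Gm12663, named after their values were seen. Mgst2 had a log2 fold change of -1.54 under BPA, -0.39 in vehicle (edgeR adjusted p = 0.265) and -0.43 in stigmasterol animals (0.21). The test of the difference gave -1.15 ± 0.279 against vehicle (unadjusted p = 0.000616 in edgeR, adjusted p = 0.536) and -1.10 ± 0.281 against stigmasterol (unadjusted p = 0.000958, adjusted p = 0.407). Ephb1, a receptor for ephrins that guides cell contacts, was at 3.68, 5.54 and 4.16 CPM in KO and at 6.02, 22.4, 8.14 and 23.8 CPM in WT (-1.76 ± 0.373, edgeR adjusted p = 0.0261). Its value was -0.64 in vehicle and -0.20 in stigmasterol animals, and its call was lost without WT animal T75 or T74 or any one KO animal (adjusted p 0.0535 to 0.135). Ryr1, the calcium release channel of skeletal muscle, was at 7.84, 7 and 4.65 CPM in KO and at 11.9, 13.2, 11.4 and 10.9 CPM in WT (-0.86 ± 0.194, edgeR adjusted p = 0.0388). For none of the 16 did the difference from vehicle or from stigmasterol pass the adjusted threshold, so they are not shown to be particular to BPA.

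The genotype difference itself differed from that in vehicle animals for 3 genes, 0.0148% of those tested (1788 had an unadjusted p under 0.05 in edgeR), and from that in stigmasterol animals for 1 gene, 0.00494% (1525 had an unadjusted p under 0.05). All lie in the major histocompatibility region of chromosome 17, within 35194439 to 35474563 (mm10), so they may not be independent results. The mice were of mixed background, and the strain origin of this region in each animal was not tested. With 3 KO animals per treatment, a difference between animals cannot be told apart from one between treatments. Lta and Ltb encode lymphotoxins, cytokines that shape lymphoid tissue, and H2-Q10 encodes a class I molecule that the mouse liver secretes. Lta was at 0.206, 0.134 and 0.123 CPM in KO and at 0.371, 0.453, 0.412 and 0.307 CPM in WT under BPA. In vehicle animals it was at 1.27, 1.32 and 1.65 CPM in KO and at 0.0878, 0.2, 0.358 and 0.266 CPM in WT. Under BPA the KO libraries were thus the lower ones, and in vehicle animals the higher ones. The reads behind this were few. Under BPA there were 9, 6 and 5 in KO and 19, 19, 19 and 14 in WT. In vehicle animals there were 63, 82 and 65 in KO and 4, 8, 16 and 10 in WT. The log2 fold change was -1.30 ± 0.379 under BPA (edgeR adjusted p = 0.169), 2.62 in vehicle (0.000103) and 2.76 in stigmasterol animals (7.04e-05). The difference was -3.92 against vehicle (edgeR adjusted p = 0.00532) and -4.07 against stigmasterol (0.00426).

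Ltb was at 0.845, 1.07 and 0.836 CPM in KO and at 1.06, 1.03, 0.955 and 0.833 CPM in WT under BPA, where the groups overlapped. In vehicle animals it was at 4.8, 3.84 and 4.41 CPM in KO and at 0.987, 0.701, 0.67 and 1.38 CPM in WT. The log2 difference was -2.29 (edgeR adjusted p = 0.00532). H2-Q10 was at 67.8, 77.9 and 64.9 CPM in KO and at 70.2, 61.8, 79.8 and 53.7 CPM in WT under BPA, again overlapping. In vehicle animals it was at 2.09, 1.81 and 1.67 CPM in KO and at 81.9, 89.6, 46.3 and 70.3 CPM in WT, a log2 difference of 5.35 (edgeR adjusted p = 0.0106). In stigmasterol animals KO animal T10 was at 2.16 CPM and KO animals T15 and T93 at 34.7 and 40.8 CPM, against 49.6, 82.4, 56.8 and 62.9 CPM in WT. H2-Q10 has close relatives among class I genes, so its reads may be shared with them. The 3 genes kept these calls when each of the 7 BPA animals was left out in turn. In limma-voom the difference of H2-Q10 missed the threshold (adjusted p = 0.228), and that of Ltb had an edgeR adjusted p of 0.0531 with only the 4 groups of the contrast fitted. With the epididymis-rich libraries left out (Cdh16 of 10 CPM upward), which leaves 1 KO library per treatment, the differences from vehicle were of about the same size, with a log2 value of 5.35 for H2-Q10 (edgeR adjusted p = 0.0475), -2.36 for Ltb (0.518) and -3.40 for Lta (1).

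**Figure D4:**
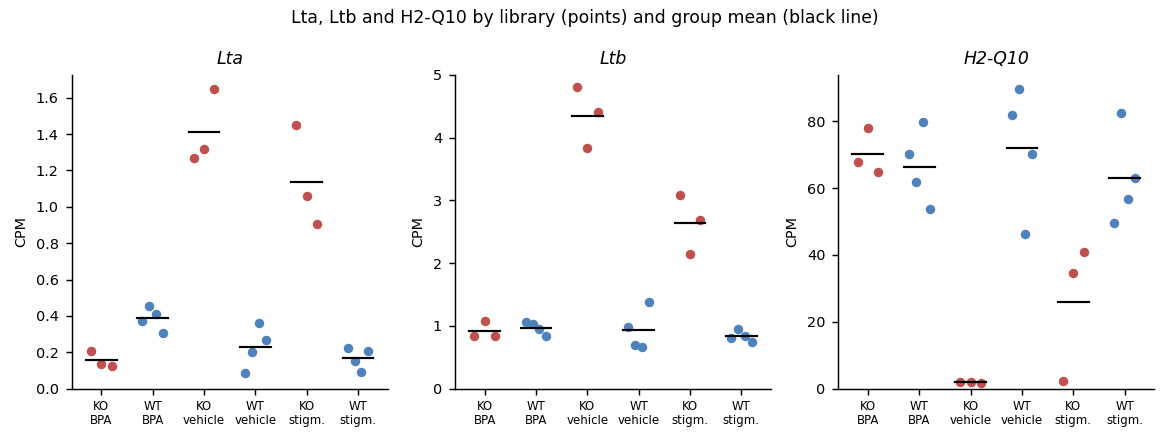
CPM of Lta, Ltb and H2-Q10 by library (points) and group mean (black line) in the BPA, vehicle and stigmasterol pairs, each with KO (red) left of WT (blue). Under BPA the KO libraries lie at 0.123 to 0.206 CPM for Lta, 0.836 to 1.07 CPM for Ltb and 64.9 to 77.9 CPM for H2-Q10, whereas in vehicle animals KO libraries lie at 1.27 to 1.65, 3.84 to 4.8 and 1.67 to 2.09 CPM.

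Called genes were unevenly placed in the genome. Chromosome 3 held 31 of them (3.32% of its tested genes; 10 higher, 21 lower in KO), chromosome 7 held 39 (2.51%; 21 higher, 18 lower) and chromosome 11 held 22 (1.29%; 16 higher, 6 lower). Together these 3 held 52.9% of the called genes and 20.7% of those tested, and on the other chromosomes 0.511% of tested genes were called. In windows of 10 Mb, 9 of 275 held 5 or more called genes, 73 genes in all. The densest of these 9 were 0 to 10 Mb on chromosome 7, with 13 of 102 tested genes called (12.7%), 10 to 20 Mb on the same chromosome with 15 of 147 (10.2%), and 170 to 180 Mb on chromosome 2 with 10 of 99 (10.1%). Pira2, Lair1, Shisa7 and Isoc2b lie in the first, and Ppm1n, Igsf23 and Apoc2 in the next. Both directions occurred in each, with 5 higher and 8 lower in the first and 10 higher and 5 lower in the next. Of the other genes described above, Rxfp1, Tmod4, Tchh, Olfml3, Slc2a2, Celf3, Hapln2, Mgst2 and Ccdc39 lie on chromosome 3. Tchh, Celf3 and Tmod4 fall within its window of 90 to 100 Mb. The mice were of mixed background, and the strain origin of these regions in each animal was not tested.

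All 10 called genes of the chromosome 2 window were lower in KO, and so were all 7 in the window of 40 to 50 Mb on chromosome 4. On chromosome 2, Gm14403 was at 2.01, 2.21 and 2.41 CPM in KO and at 12.2, 10, 7.53 and 10.3 CPM in WT (log2 fold change -2.18, edgeR adjusted p = 2.97e-06). Among the chromosome 4 genes, Gm10600 had no read in any KO library and lay at 2.21, 2.31, 2.08 and 2.02 CPM in WT. This makes it at least 29.2-fold lower in KO, taking the highest 3-read floor of a KO library. Gp6, the platelet collagen receptor on chromosome 7, was likewise at 0 in all KO libraries and at 0.371, 0.358, 0.716 and 0.46 CPM in WT, at least 6.46-fold lower on the same floor. Within 5 Mb of Nr1h4, 2 of 84 tested genes were called (2.38%, against 0.859% over all tested genes), Hal and the deubiquitinase Usp44, both lower in KO. At 5 to 20 Mb from it, 0 of 300 were called. Whether the 2 genes exceed the share over all genes was not tested, and the Hal call depended on single animals, as given above. Usp44 was at 1.23, 1.63 and 1.6 CPM in KO and at 4.03, 3.51, 4.34 and 2.85 CPM in WT (-1.31, edgeR adjusted p = 0.000478). Gm14403, Gm10600, Gp6 and Usp44 were picked here after their values were seen.

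**Figure D5:**
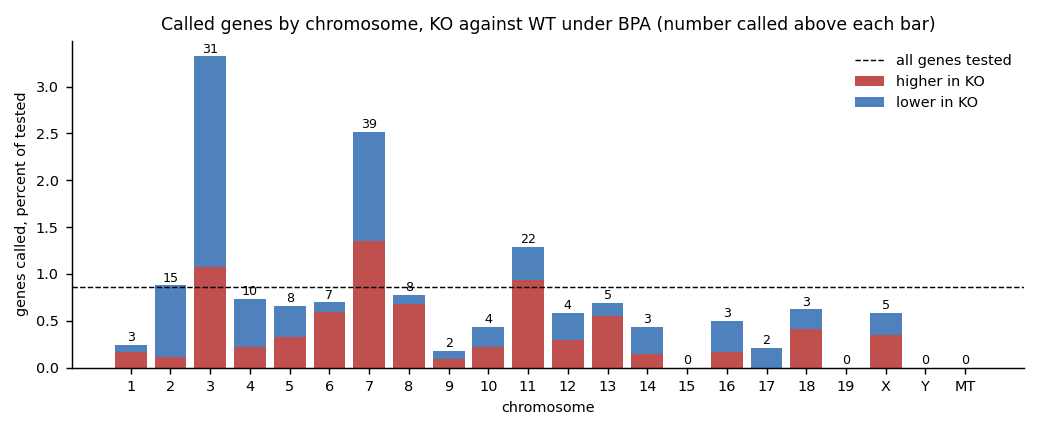
Genes called between KO and WT under BPA as a percentage of the tested genes of each chromosome, split into higher (red) and lower (blue) in KO, with the number called above each bar. The dashed line is the 0.859% called over all tested genes, and chromosomes 3 (3.32%) and 7 (2.51%) stand highest.

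Pseudogenes made up 37 of the 174 called genes, 21.3%, and 4.07% of the tested genes; among called genes that differed at least 2-fold their share was 31.8%. Their reads may come from parent genes with near-identical sequence, so the source of these differences is uncertain. Protein-coding genes made up 122 of the 174. Some of the called genes were all-or-none within the KO group. The pseudogene Gm6472 on the X chromosome was at 53.5, 27.4 and 0.0738 CPM in KO and at 0.0195 to 0.0658 CPM in WT. Gm9825 was at 0.0914, 12.5 and 12.4 CPM in KO and at most 0.119 CPM in WT. Gm15487, also on chromosome 6, had the same order, at 0.0228, 4.65 and 4.5 CPM in KO and at most 0.0658 CPM in WT. KO animal T25 was no higher than the highest WT library for both, and KO animal T117 was close to the WT libraries for Gm6472, near the 3-read floor.

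Among named genes on chromosome 6, Pianp, a membrane partner of the paired receptor PILRα, was at 33.5, 4.83 and 44.7 CPM in KO and at 5.3, 8.2, 5.17 and 6.12 CPM in WT. KO animal T83 was thus below every WT library while the other KO animals were far above (log2 fold change 2.16 ± 0.456, edgeR adjusted p = 0.0251). WT animals also varied in a shared way for a few called genes. Mme, the peptidase neprilysin, was at 38.2, 41.7 and 61.2 CPM in KO and at 98.5, 170, 106 and 160 CPM in WT (-1.51, edgeR adjusted p = 0.00383). Wnt2b, a Wnt ligand, was at 3.18, 4.38 and 4.99 CPM in KO and at 8.23, 13.3, 8.68 and 13.1 CPM in WT (-1.37, edgeR adjusted p = 0.000759). WT animals T75 and T74 were the higher ones for Mme, Wnt2b and Ephb1. Of 142 called genes with a group mean of at least 1 CPM, the highest KO library exceeded the lowest by more than 3 times in 10 genes, and the highest WT library did so in 9. The genes of this paragraph and the pseudogenes named before it were picked after their values were seen.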

How the data were processed

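RNA-seq of 21 whole mouse testes at postnatal day 10 was used, of which 7 make up the comparison. The authors deposited a table of raw read counts per gene for all libraries. Per the labels' protocols, libraries were made from total RNA with an Illumina TruSeq kit that does not keep strand, so reads of overlapping antisense genes cannot be told apart. CASAVA 1.8.2, Bowtie, TopHat2 2.0.10, Bowtie2 2.1.0 and mm10 are named in the submitters' processing notes. The counting tool and annotation release used by the authors were not given in the sources used here. Total counts of the 7 libraries were 40261602 to 50171437.

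Tests on the counts used edgeR 4.0.16 (R 4.3.3) with TMM scaling, filterByExpr with a minimum count of 10 and a minimum total of 15, all 21 libraries in 6 group means, quasi-likelihood tests and Benjamini-Hochberg adjustment over all tested genes at 0.05. Standard errors were taken as the size of the log2 fold change over the square root of F. Differences between treatments were tested as interaction contrasts. The common biological coefficient of variation was 19.2%. The 9 pairs of libraries within a genotype differed by more than sampling noise (chi-square per degree of freedom 9.19 to 37.9), so none was merged. The code was tested on simulated counts. Alternatives were RLE scaling, DESeq2 1.42.0, limma-voom 3.58.1, no filter, a filter of 1 CPM in 3 libraries, only the groups compared, an epididymis or meiosis score as covariate, and leaving out libraries. Genes were named by rule. By size of fold change, the rule took the top 12 rises and the top 12 falls of called genes. These needed conventional symbols, separate groups and a mean of at least 1 CPM in a group. From each list it took the called members, at most 4 by the smallest p. Where none was called, it took the member with the smallest p. It also took Nr1h4, its main targets and the genes that differed between treatments. Other genes were picked outside the rule, and the text says so for only some of them. Rxfp2, Insl3, Apoa1, Slc27a5, Slc10a1, Hba-a2, Ccna1, Dnah6, Cidec and markers such as Cdh16 and Alb are not marked in this way. A further gene that meets this rule is not reported here. Members and gene lists were chosen with earlier results of these data known. Promoter sequences and their starts are RefSeq's for GRCm38.p6. Intervals and floors cover counting error only.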

Additional observations from a re-analysis of the deposited data

Results flagged for a closer look

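Single WT libraries stood far from the other 3 in their group for 6 of 66 genes examined. The 4 WT libraries were the 1 group tested per gene, since groups of 3 are too small, and chance gives about 5 percent of such groups. Whether 6 exceeds that share was not tested. WT animal T61 was the highest of its group for Grin2c (5.49 CPM), Apoc2 (1.74 CPM), Apob, the main protein of liver lipoproteins (21.9 CPM), and Cyp2c29 (1.35 CPM). The same library held the most liver RNA, with Alb at 578 CPM. WT animal T60 was the highest for Cox7a2 (70 CPM), and WT animal T74 the lowest for Sc5d (19.7 CPM).

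The genotype difference under BPA departed from that in another treatment for 3 genes that lie close together on chromosome 17. Against vehicle animals the log2 difference was -3.92 for Lta, -2.29 for Ltb and 5.35 for H2-Q10, and against stigmasterol animals it was -4.07 for Lta, each by an interaction test in edgeR. KO libraries under BPA were at 0.123 to 0.206 CPM for Lta, while vehicle KO libraries were at 1.27 to 1.65 CPM.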

How the results depend on the processing

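No paired analysis was possible because the KO and WT libraries share no replicate numbers. The 174 genes called under BPA became 302 with DESeq2, 110 with only these groups fitted, 317 with a meiosis score as covariate, 31 without the libraries high in Cdh16, 88 without WT animal T61 and KO animal T117, and 108 to 137 leaving out each animal in turn. Scaling by RLE gave 172, limma-voom 158, no filter 156, a stricter filter 146 and an epididymis score 176. Of the 31 and the 88, 22 and 83 were among the 174. The 3 genes that differed from vehicle became 8 with DESeq2, 5 without T61 and T117, and 3 to 5 leaving out each animal. The 1 gene that differed from stigmasterol became 38 with DESeq2, 6 with the meiosis score, 0 without the Cdh16 libraries (405 at an unadjusted p under 0.05 in edgeR), 2 without T61 and T117, and 1 to 2 leaving out each animal. The causes were not tested. Signs reversed for named genes that were not called under BPA: C1qb (-0.11), Fstl3 (-0.01) and Nr0b2 (-0.41) without the Cdh16 libraries, Nr0b2 without WT animal T75 (-0.06) or KO animal T117 (-0.04), H2-Q10 under BPA without WT animal T74 (-0.01) or KO animal T83 (0), and Slc51b with limma-voom (0) and without T61 and T117 (-0.26), WT T60 (-0.03), WT T74 (-0.05) or KO T117 (-0.27). Over leaving out each animal, Nr0b2 ranged from -0.06 to 0.21, H2-Q10 from -0.01 to 0.18 and Slc51b from -0.27 to 0.24. Of 27 called genes named by rule, 19 kept their call with each animal left out, and 6 in every alternative, among them Rxfp1, Tmod4, Pira2, Olfml3 and Shisa7. Depth limits Nr1h4, Apoc2 and Lta, which had 7 to 40, 0 to 80 and 5 to 19 reads a library under BPA.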
